A study of Mus musculus with 32 samples.

Results

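Cyp2a22, Cyp2b10, Gsta1 and Ugt2b37 are 4 liver enzymes of drug oxidation and conjugation, chosen by name from 533 genes in 2 deposited tables. Gsta1 and Ugt2b37 stand in both tables, and Cyp2a22 and Cyp2b10 only in the table of experiment T. The samples are total liver RNA from C57BL/6J mice given vehicle or sodium oxybate (SXB), a narcolepsy drug that is the salt of gamma-hydroxybutyrate, in a study of developing and established obesity. The labels give 2 experiments, P and T, and 32 libraries, with 8 for vehicle and 8 for SXB in each experiment. The obesity model behind each letter, and sex, age, diet, dose and duration, are not given in the labels used here. Whether libraries came from separate mice is not stated either, and p-values then reflect only how the libraries spread, which may be technical. The authors had already selected the 242 genes listed for P and the 306 for T from these same libraries: each has an absolute log2 fold change above 1 and an unadjusted p under 0.05. A difference in any of these genes is therefore a description of selected genes and not independent evidence of an effect.

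The liver clears foreign compounds in steps. Cytochromes P450 in the endoplasmic reticulum add oxygen to a lipophilic compound, and transferases then couple the product to a water-soluble group, glutathione for the glutathione S-transferases and glucuronic acid for the UDP-glucuronosyltransferases. Many of these genes are induced by the receptors CAR, PXR and AHR or by the factor NRF2 when their ligands or electrophiles are present. Gamma-hydroxybutyrate itself is cleared mainly by oxidation to succinic semialdehyde and on into the citric acid cycle.

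Each of these genes has near copies in the genome, so the letters that tell them apart decide how far a read can be assigned. The stretches below are the opening 120 coding bases of the GENCODE M21 transcripts (GRCm38). Bases that differ from the nearest relative of the same named subfamily are in capitals. These stretches are shown because the deposited values depend on reads of 150 bases being given to the right copy.
Cyp2a22: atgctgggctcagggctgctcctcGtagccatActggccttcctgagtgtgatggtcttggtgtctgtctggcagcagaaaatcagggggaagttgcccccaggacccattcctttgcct
Cyp2a12: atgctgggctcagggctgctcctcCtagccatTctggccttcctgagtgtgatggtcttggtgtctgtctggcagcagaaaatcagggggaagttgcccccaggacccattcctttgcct
Cyp2b10: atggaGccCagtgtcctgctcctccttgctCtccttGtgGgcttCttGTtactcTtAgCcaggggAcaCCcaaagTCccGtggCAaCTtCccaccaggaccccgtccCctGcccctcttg
Cyp2b13: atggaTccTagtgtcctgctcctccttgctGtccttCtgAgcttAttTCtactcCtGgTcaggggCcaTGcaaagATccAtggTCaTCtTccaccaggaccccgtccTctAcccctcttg
Gsta1: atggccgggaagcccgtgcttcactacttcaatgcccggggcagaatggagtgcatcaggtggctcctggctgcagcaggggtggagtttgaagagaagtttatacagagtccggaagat
Ugt2b37: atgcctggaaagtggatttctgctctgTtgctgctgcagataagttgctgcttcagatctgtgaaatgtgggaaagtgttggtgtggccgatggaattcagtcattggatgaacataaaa
Ugt2b5: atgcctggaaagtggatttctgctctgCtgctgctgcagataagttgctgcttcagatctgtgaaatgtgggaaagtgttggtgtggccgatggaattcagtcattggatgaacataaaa
Gsta2, the nearest relative of Gsta1 among the named Gsta genes, has the same 120 bases as Gsta1. Over the whole coding sequence the nearest relatives of the same named subfamily were 97.0% identical for Cyp2a22 (Cyp2a12), 87.1% for Cyp2b10 (Cyp2b13), 97.6% for Gsta1 (Gsta2) and 94.7% for Ugt2b37 (Ugt2b5). The gene model Gm3776, which shares more transcript windows with Gsta1 than Gsta2 does, was not aligned. For Gsta1, 73.7% of its transcript windows of 150 bases, 535 of 726, also occur letter for letter in a transcript of another gene, chiefly Gm3776 (62.4%) and Gsta2 (14.3%). For Cyp2a22 that share was 3.46%, all in Cyp2a12, and for Cyp2b10 and Ugt2b37 it was 0%. With windows of 50 bases the shares were 25.7%, 10.2%, 89.7% and 18.3% for Cyp2a22, Cyp2b10, Gsta1 and Ugt2b37. These windows stand for single reads. The libraries were read in pairs, so the mate of a read may tell copies apart, which was not counted. Values of Gsta1 are still uncertain between Gsta1 and its copies, since the sources used here do not tell how the authors assigned shared reads.

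**Figure D1:**
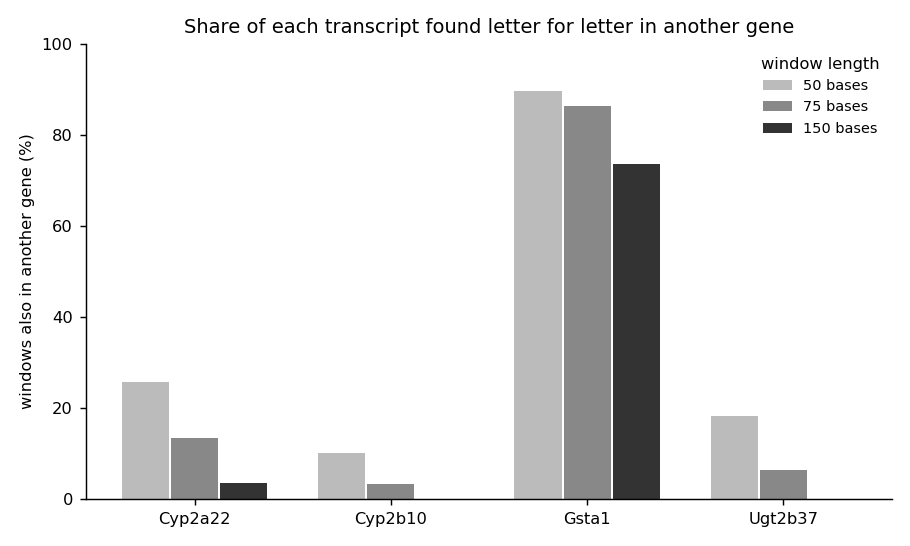
Share (percent, from 0) of all windows along each transcript that occur exactly in a transcript of another gene, for windows of 50, 75 and 150 bases. Gsta1 stands apart, at 73.7% for 150 bases, while Cyp2a22 is at 3.46% and Cyp2b10 and Ugt2b37 are at 0%.

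Cyp2b10 lies at chr7:25897620-25926624 on the plus strand and Cyp2a22 at chr7:26931631-26939384 on the minus strand. Gsta1 lies at chr9:78230656-78242684 on the plus strand and Ugt2b37 at chr5:87240493-87254804 on the minus strand (GRCm38, GENCODE M21). The values are given per gene, and how reads over exons were combined is not stated. The reference transcript has 9 exons for Cyp2a22, 10 for Cyp2b10, 7 for Gsta1 and 6 for Ugt2b37. All 4 genes matched the RefSeq promoter table (GRCm38.p6). The promoters of Cyp2a22 and Gsta1 are printed because these genes varied together in T, as described later. Each runs over the 250 bases before the RefSeq start, with motif matches in capitals. That start differs from the GENCODE gene ends given above. The last bases of the Gsta1, Cyp2b10 and Ugt2b37 windows therefore lie inside the GENCODE gene.
Cyp2a22, chr7:26939387-26939636, minus strand: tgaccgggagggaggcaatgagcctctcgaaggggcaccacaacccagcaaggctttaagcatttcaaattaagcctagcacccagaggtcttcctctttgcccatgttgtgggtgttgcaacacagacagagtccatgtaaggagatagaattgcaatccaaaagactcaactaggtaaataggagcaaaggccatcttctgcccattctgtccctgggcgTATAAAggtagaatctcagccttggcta
Gsta1, chr9:78230419-78230668, plus strand: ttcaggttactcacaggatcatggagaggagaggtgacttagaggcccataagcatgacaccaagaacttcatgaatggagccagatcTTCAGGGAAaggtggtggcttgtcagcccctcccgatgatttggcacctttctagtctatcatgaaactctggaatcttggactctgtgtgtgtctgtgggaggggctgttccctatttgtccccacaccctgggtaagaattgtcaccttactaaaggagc
A set of 6 motifs was searched on both strands: TATAAA (the TATA box), AGGTCA (bound by nuclear receptors), GTTAAT (bound by HNF1), TGACNNNGC (bound by NRF2), GCGTG (bound by AHR) and TTCNNNGAA (bound by STAT factors). The Cyp2a22 promoter holds TATAAA at 28 to 23 bases before the start, a motif in 12.4% of 32851 promoters. The Gsta1 promoter holds TTCNNNGAA at 162 to 154 bases before the start, a motif in 7.0% of promoters. Of the others, Cyp2b10 holds GCGTG at 101 to 97 bases on the opposite strand and again at 9 to 5 bases (28.2% of promoters), and Ugt2b37 holds AGGTCA at 39 to 34 bases (4607 of the 32851 promoters). GTTAAT (6.4%) and TGACNNNGC (10.2%) were found in none of these 4 windows, and no motif was shared by any pair of the 4. A match describes the letters in this window and is no evidence of binding.

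The values are the authors' normalised expression values, rounded to 0.01. Whether they are scaled per length is not stated, so levels are not compared between genes, and sequencing depth is unknown. Low values are common in both tables: 195 of the 242 genes of P and 220 of the 306 of T have a mean below 1 over 16 libraries. So have the members (0.366 to 0.802), except Gsta1 in T (2.34). Differences from limma are on log2(value + 1), and at such low values the added 1 tends to make them smaller than on log2 alone. In T, library 16, labelled vehicle, stands among the SXB columns of the deposited table, and library 18, labelled SXB, stands among the vehicle columns. The difference of each member in T is therefore given by label, without libraries 16 and 18, and with their groups exchanged. Libraries 1 to 4 of T (library 4 vehicle, libraries 1, 2 and 3 SXB) had mt-Atp6 at 486 to 6422, against 0 to 44.8 in the other 12. In P, vehicle libraries 33, 34 and 35 had the acute-phase gene Orm2 at 140 to 897, against 8.03 to 10.4 in the other vehicle libraries and 4.78 to 163 in the SXB libraries. Leaving those 3 out takes high-Orm2 libraries from the vehicle side only. None of the 10 hepatocyte markers is listed in either table, so the labelled tissue could not be checked against them.

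**Figure D2:**
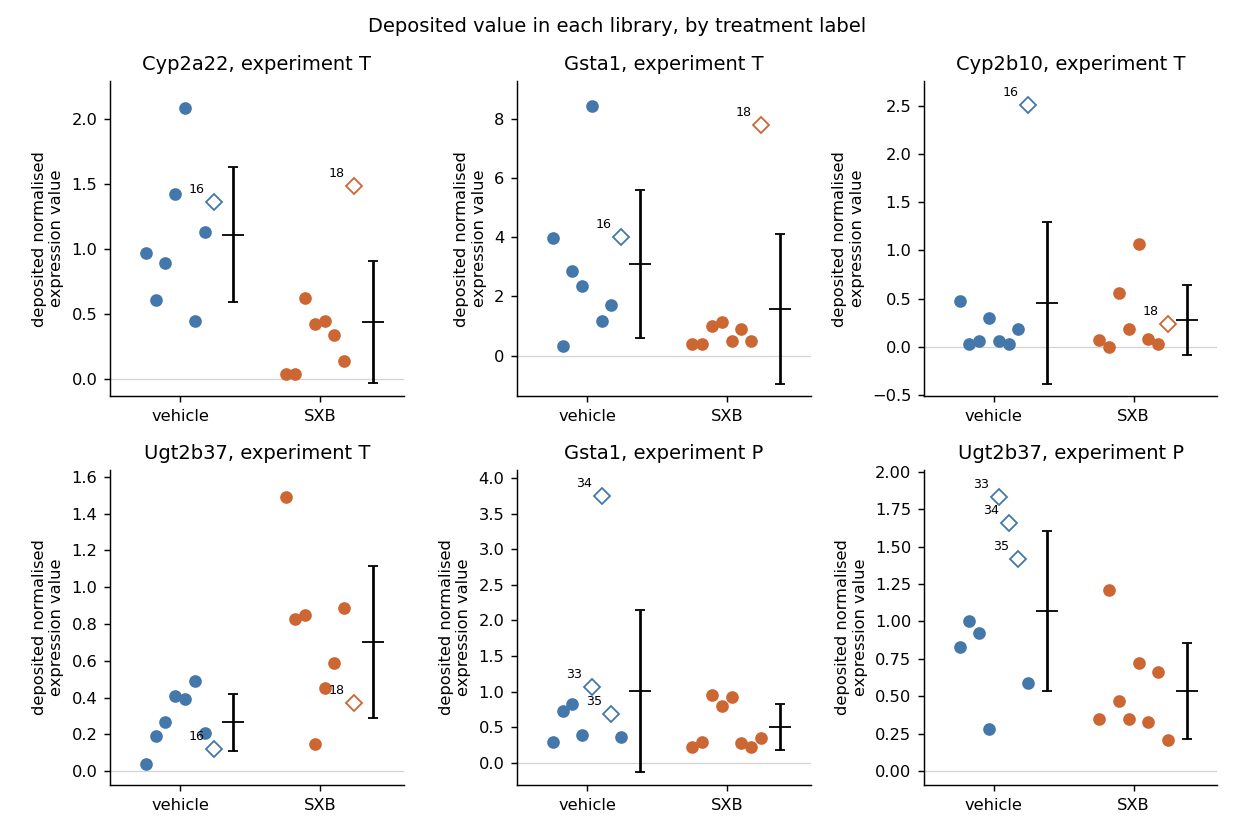
Normalised expression value of each member (vertical axis, authors' units) in each library by treatment label; the bar is the mean and its line ± SD over 8 libraries, and open diamonds are libraries 16 and 18 of T and 33, 34 and 35 of P. Library 18 holds the highest SXB value of Cyp2a22 (1.48) and of Gsta1 in T (7.81), and library 16 the highest value of Cyp2b10 (2.51).

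Of the 4 members in T, 0 passed a limma adjusted p of 0.05 by label, and 2 (Cyp2a22 and Ugt2b37) had an unadjusted p below 0.05. The exact permutation test and the exact rank-sum test also passed 0 of the 4 after adjustment. The same fit called 0% of all 306 listed genes, with 0% lower and 0% higher, and 90 had an unadjusted p below 0.05. By label 3 of the 4 members were lower with SXB and 1 higher, against 158 lower and 148 higher of all listed genes, whose median log2(value + 1) difference was -0.02. Without libraries 16 and 18, limma passed 1 of the 4 members, Cyp2a22, against 18.3% of all listed genes (12.1% lower, 6.21% higher). With their groups exchanged it again passed 1 of 4, against 29.4% of all listed genes (19.9% lower, 9.48% higher). In the authors' deposited table, no member had an adjusted p below 0.05, against 14.1% of the genes listed for T.

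The oxidation enzymes come first. Cyp2a22, a P450 of the Cyp2a subfamily that also holds the steroid hydroxylase Cyp2a12, was at 0.45, 1.05 and 2.08 (lowest, median, highest) in the vehicle libraries of T and at 0.04, 0.38 and 1.48 in the SXB libraries. Of the 8 SXB libraries 7 lay below the vehicle median and 5 below every vehicle library, while library 18 was the second highest of all 16. Vehicle libraries averaged 1.11 ± 0.515 (SD, n = 8) and SXB libraries 0.441 ± 0.468 (n = 8), 2.52-fold lower, and limma gave a log2(value + 1) difference of -0.57 (SE 0.18, adjusted p = 0.167). Without libraries 16 and 18, Cyp2a22 fell 3.68-fold, from 1.08 ± 0.545 (n = 7) to 0.293 ± 0.224 (n = 7). There limma gave -0.66 (SE 0.16, 95% interval -1.01 to -0.32, adjusted p = 0.0286), and the vehicle median stood above all 7 SXB libraries. With the groups exchanged it was -0.59 (SE 0.18, limma adjusted p = 0.0271). The call without libraries 16 and 18 was lost without vehicle library 10 (-0.62, limma adjusted p = 0.0526) or SXB library 2 (-0.61, limma adjusted p = 0.0565). It was lost too without libraries 1 to 4 as well (-0.61, limma adjusted p = 0.123). With libraries 1 to 4 kept and fitted as a term, the call remained (-0.63, limma adjusted p = 0.0446). In bulk liver, fewer cells of a type and less RNA per cell cannot be told apart.

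Cyp2b10, the classic target gene of CAR that phenobarbital induces, was at 0.03, 0.12 and 2.51 in the vehicle libraries of T and at 0, 0.13 and 1.07 in the SXB libraries. The groups overlapped over most of their range, and the highest value of all 16 was that of library 16. By label the means were 0.455 ± 0.845 (n = 8) and 0.278 ± 0.366 (n = 8), with a limma log2(value + 1) difference of -0.09 (SE 0.24, 95% interval -0.60 to 0.41, adjusted p = 0.736). Without libraries 16 and 18 the direction turned, with means of 0.161 ± 0.168 (n = 7) with vehicle and 0.284 ± 0.395 (n = 7) with SXB. That difference was 0.11 (SE 0.16, 95% interval -0.24 to 0.45, limma adjusted p = 0.524), and it turned again without SXB library 9 (-0.02). With the groups exchanged it was 0.28 (SE 0.23, limma adjusted p = 0.253). The authors' deposited table lists Cyp2b10 at a log2 fold change of 2.21, whereas the log2 ratio of the means was -0.71 by label, 0.82 without libraries 16 and 18 and 1.73 with their groups exchanged. For each member in T the deposited value lay nearer to the exchanged ratio than to the ratio by label. Recomputed minus deposited values ran from -0.49 to 0.17 with the groups exchanged and from -2.93 to 0.70 by label. The grouping the authors used was not tested, and the exchanged fit is no independent evidence either.

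**Figure D3:**
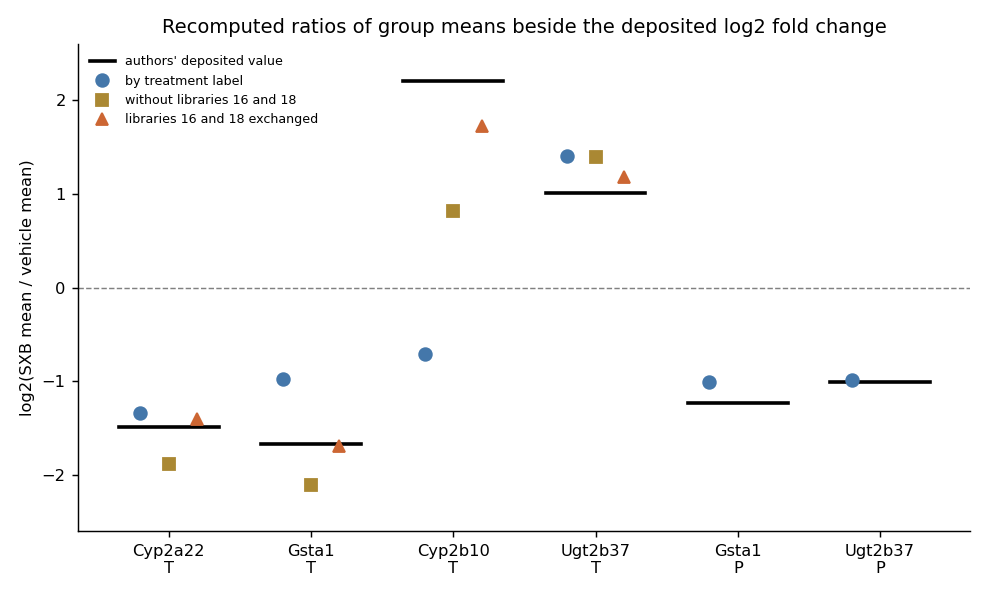
Log2 ratio of mean values, SXB over vehicle (axis in log2 units), recomputed by label and, for T, without libraries 16 and 18 and with them exchanged, beside the log2 fold change in the authors' deposited table (line). Cyp2b10 is at -0.71 by label against 2.21 deposited, and Gsta1 in T at -0.97 by label and -1.69 with the groups exchanged against -1.67.

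The conjugation enzymes follow. Gsta1, an alpha-class glutathione S-transferase that couples glutathione to electrophiles, was at 0.32, 2.6 and 8.44 in the vehicle libraries of T and at 0.4, 0.7 and 7.81 in the SXB libraries. The high SXB value was library 18, and the other 7 SXB libraries lay at 1.14 or lower. By label the means were 3.1 ± 2.51 (n = 8) and 1.58 ± 2.53 (n = 8), 1.96-fold lower, and limma gave -0.78 (SE 0.42, adjusted p = 0.215). Without libraries 16 and 18 the means were 2.97 ± 2.68 (n = 7) and 0.691 ± 0.309 (n = 7), 4.3-fold lower, with all 7 SXB libraries below the vehicle median. That difference was -1.01 (SE 0.34, 95% interval -1.74 to -0.27) and missed the threshold (limma adjusted p = 0.0518). With the groups exchanged it was -0.98 (SE 0.39, limma adjusted p = 0.0628). It passed without libraries 16 and 18 and either vehicle library 6 or 14 (-1.23, limma adjusted p = 0.0188, and -1.11, limma adjusted p = 0.0411). The value may include reads of the near copies described above.

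Ugt2b37, a UDP-glucuronosyltransferase of the Ugt2b cluster, was at 0.04, 0.24 and 0.49 in the vehicle libraries of T and at 0.15, 0.71 and 1.49 in the SXB libraries. Of the 8 SXB libraries 7 lay above the vehicle median and 5 above every vehicle library. The means were 0.265 ± 0.155 (n = 8) and 0.702 ± 0.412 (n = 8), 2.65-fold higher with SXB, and limma gave 0.40 (SE 0.13, 95% interval 0.12 to 0.69, adjusted p = 0.167). Without libraries 16 and 18 it was 0.42 (SE 0.14, limma adjusted p = 0.0518), and with their groups exchanged 0.33 (SE 0.15, limma adjusted p = 0.0759). Without libraries 1 to 4 the difference by label was 0.19 (limma adjusted p = 0.552). Within libraries 1 to 4, vehicle library 4 was at 0.04 and the 3 SXB libraries at 0.83 to 1.49. In the other libraries without 16 and 18, 6 vehicle libraries ranged from 0.19 to 0.49 and 4 SXB libraries from 0.15 to 0.89. With libraries 1 to 4 fitted as a term the difference was 0.35 by label (limma adjusted p = 0.261). Without libraries 16 and 18 it was 0.37 with that term (limma adjusted p = 0.0861). It was 0.18 with libraries 1 to 4 left out as well (limma adjusted p = 0.321).

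In P, 0 of the 2 members listed passed a limma adjusted p of 0.05, and 1 (Ugt2b37) had an unadjusted p below 0.05. The exact permutation test and the exact rank-sum test gave the same counts. The same fit called 38.8% of all 242 listed genes (34.7% lower, 4.13% higher), and without libraries 33, 34 and 35 it called 22.3% (20.7% lower, 1.65% higher). In the authors' deposited table neither member had an adjusted p below 0.05, against 20.7% of the genes listed for P. Both members were lower with SXB. Of the 242 listed genes 201 were lower, and the median log2(value + 1) difference of all of them was -0.17. Ugt2b37 was at 0.28, 0.96 and 1.83 with vehicle and at 0.21, 0.41 and 1.21 with SXB, and 7 of 8 SXB libraries lay below the vehicle median. The 3 highest vehicle values, 1.83, 1.66 and 1.42, were those of libraries 33, 34 and 35. The means were 1.07 ± 0.533 (n = 8) and 0.537 ± 0.322 (n = 8), 1.98-fold lower, with a limma difference of -0.41 (SE 0.16, 95% interval -0.75 to -0.06, adjusted p = 0.058). Without libraries 33, 34 and 35 it was -0.17 (SE 0.15, 95% interval -0.50 to 0.15, limma adjusted p = 0.357). With 1 library left out in turn it passed without vehicle library 31 (-0.50, limma adjusted p = 0.0209), vehicle library 36 (-0.46, limma adjusted p = 0.0412) or SXB library 20 (-0.49, limma adjusted p = 0.0333). Gsta1 was at 0.3, 0.71 and 3.74 with vehicle and at 0.22, 0.32 and 0.95 with SXB, and its highest value was vehicle library 34. The limma difference was -0.31 (SE 0.23, adjusted p = 0.208), and without libraries 33, 34 and 35 it was -0.03 (SE 0.15, 95% interval -0.36 to 0.30, limma adjusted p = 0.869). Of the 10 macrophage markers 5 are listed in P (Marco, Cd5l, Adgre1, Timd4, C1qb), and their summed level was 45.6 to 100 with vehicle and 29.1 to 44.1 with SXB. Their part in these differences was not tested.

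**Figure D4:**
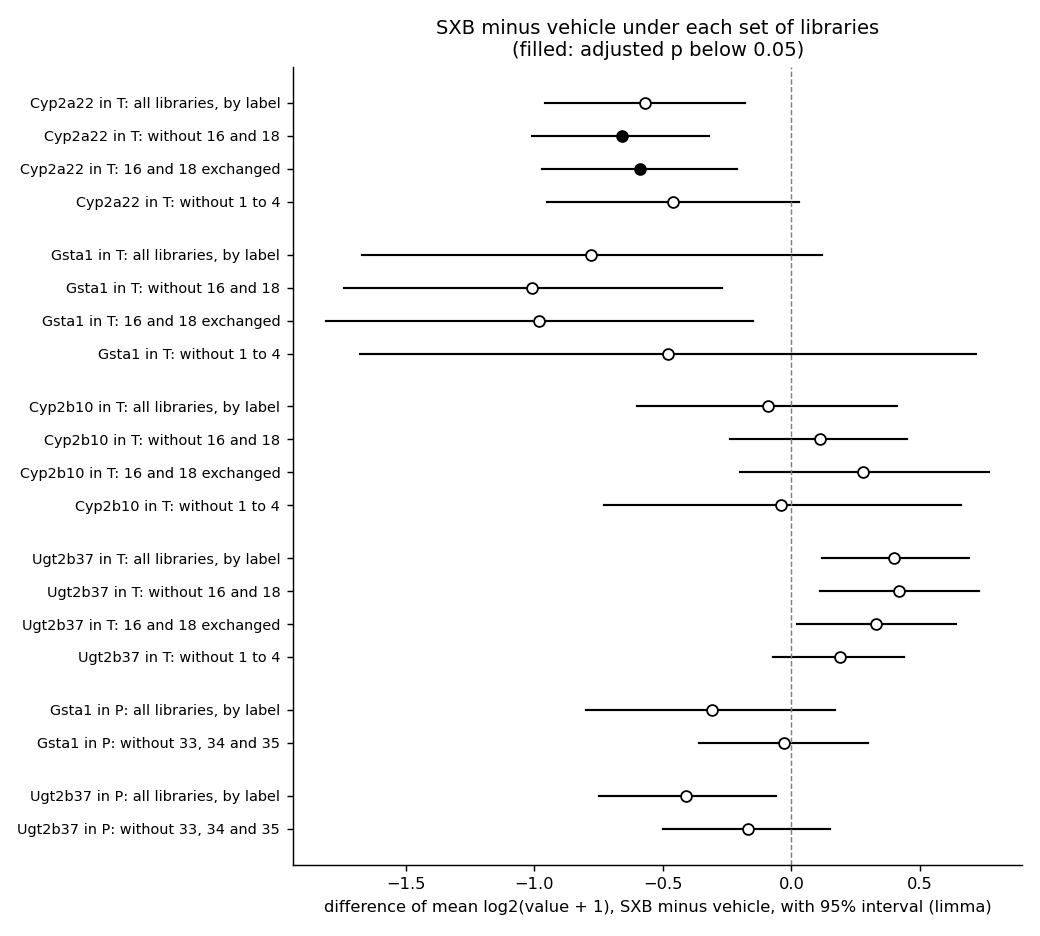
Difference SXB minus vehicle in log2(value + 1) (horizontal axis), with 95% intervals from limma, for each member and experiment under each set of libraries; filled points have an adjusted p below 0.05. Cyp2a22 passes without libraries 16 and 18 (-0.66) and with their groups exchanged (-0.59), and the interval of Cyp2b10 crosses 0 in every set drawn.

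The difference between experiments was tested through the interaction of treatment and experiment, over the 15 genes listed in both tables and all 32 libraries. Ugt2b37 was lower with SXB in P and higher in T, by a log2(value + 1) difference of 0.81 (T minus P, SE 0.21, 95% interval 0.37 to 1.24, limma adjusted p = 0.00781). The permutation test of that difference gave p = 0.00085 and, adjusted over the 15 genes, 0.00637. Of the 2 members in both tables this was 1 called, against 33.3% of the 15 shared genes. The authors listed Ugt2b37 at a log2 fold change of -1.01 in P and 1.01 in T. A difference between the experiments was thus built into its selection, and these p-values are no independent evidence of one. The difference for Ugt2b37 was 0.83 without libraries 16 and 18 (limma adjusted p = 0.00548) and 0.74 with their groups exchanged (limma adjusted p = 0.00869). Without libraries 33, 34 and 35 of P it was 0.57 (limma adjusted p = 0.0439). Without libraries 1 to 4 of T the difference was 0.59 and did not pass (limma adjusted p = 0.0675). Gsta1 was lower with SXB in both, and its difference between experiments was -0.46 (SE 0.48, 95% interval -1.45 to 0.52, limma adjusted p = 0.574). This was -0.69 without libraries 16 and 18 and -0.67 with their groups exchanged. It was -0.26 without vehicle library 11 of T, -0.76 without SXB library 18, -0.75 without libraries 33, 34 and 35 of P and -0.17 without libraries 1 to 4 of T, and passed in none of these limma fits.

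Across the 16 libraries of T, Cyp2a22 and Gsta1 varied together, with r = 0.88 and rho = 0.84 on the log2(value + 1) scale. The permutation p was 1.00e-05 for r, the smallest that 100000 resamples can give, and 5.00e-05 for rho, or 0.00021 and 0.00105 after Benjamini-Hochberg adjustment over 21 relations computed. Both genes were listed for a difference between the same groups, which can add to a relation over both groups together. The p-values over all libraries, here and without libraries 16 and 18, are therefore no independent evidence of one. Values within groups are given beside them. Other genes listed for T had a rho with Cyp2a22 of up to 0.91, as described later, so a rho of 0.84 was not particular to Gsta1. Within vehicle libraries r was 0.82 and rho 0.71 (n = 8, exact p = 0.0148 and 0.0576, adjusted 0.0655 and 0.173), and within SXB libraries r was 0.91 and rho 0.80 (n = 8, exact p = 0.00437 and 0.0222, adjusted 0.0458 and 0.117). Without the 2 libraries farthest from the median of Cyp2a22, r was 0.83 over all libraries, 0.65 within vehicle and 0.70 within SXB. With libraries 16 and 18 left out, r was 0.86 and rho 0.78 over 14 libraries (permutation p = 9.00e-05 and 0.0015, adjusted over 18 relations 0.00162 and 0.027). There r was 0.81 within vehicle (n = 7, exact p = 0.0321, adjusted 0.193) and 0.76 within SXB (n = 7, exact p = 0.0655, adjusted 0.236), so neither group alone passed after adjustment. Cyp2a22 and Ugt2b37 had r = -0.63 and rho = -0.57 over all 16 libraries (permutation p = 0.0085 and 0.0231, adjusted 0.0595 and 0.117). For that pair r was 0.02 and rho 0.00 within vehicle libraries (n = 8, exact p = 0.968 and 1), and r was -0.59 and rho -0.59 within SXB libraries (n = 8, exact p = 0.126 and 0.135). The pair had r = -0.61 over the 14 libraries other than 16 and 18, 0.11 within vehicle and -0.59 within SXB. Of the other relations, including Gsta1 with Ugt2b37 in P (r = 0.56, 0.24 without the 2 farthest libraries), none passed after adjustment, with or without libraries 16 and 18. For that pair in P, r was 0.67 and rho 0.79 within vehicle libraries (n = 8), and r was 0.87 there without the 2 farthest. Within SXB libraries r was -0.02 and rho 0.16 (n = 8), and r was -0.25 without the 2 farthest.

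**Figure D5:**
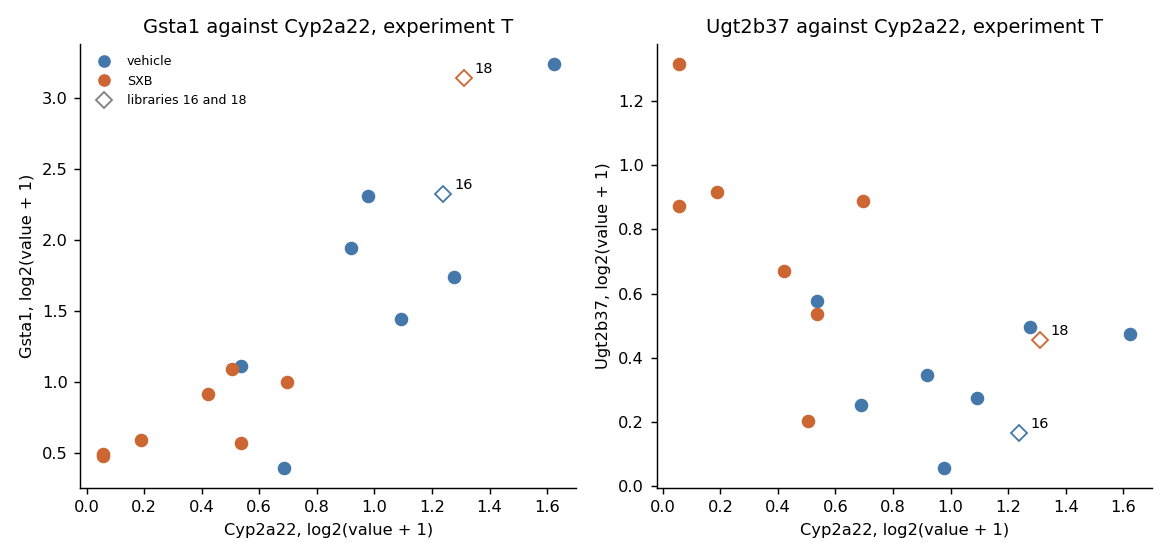
Gsta1 and Ugt2b37 in T (vertical axes, log2(value + 1)) against Cyp2a22 in the same libraries (horizontal axis, same scale), by treatment label. Gsta1 rises with Cyp2a22 (r = 0.88 over 16 libraries), and Ugt2b37 runs the other way over all libraries (r = -0.63), with r = 0.02 within vehicle and r = -0.59 within SXB libraries.

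For each member and table, the 3 most alike of the other named genes with a mean of at least 1 were taken by Spearman's rho over the 16 libraries, as a description with no test. For Cyp2a22 these were Raet1d (0.91) and Raet1e (0.88), which encode ligands of an activating natural killer receptor, and Cfd (0.86), the adipsin gene of adipocytes. The adipocyte markers Cfd and Cidec, 2 of the 6 listed in T, summed to 3.73 to 88.1 with vehicle and 1.42 to 20.1 with SXB, and their part was not tested. Taken singly, Cfd had a median of 4.56 with vehicle and 0.755 with SXB, and Cidec 4.37 and 3.77. For Gsta1 in T they were Raet1e (0.85), Raet1d (0.85) and BC049987 (0.77). For Cyp2b10 they were Cd36 (0.68), a fatty acid carrier, Fkbp5 (0.60), a co-chaperone that glucocorticoids induce, and Cidec (0.60), a lipid droplet protein. For Ugt2b37 in T they were Capn8 (0.74), Asns (0.70), the asparagine synthetase, and Tff3 (0.66). In P, Gsta1 was most like Fam81a (0.71), Cdc42ep5 (0.55) and Syt16 (0.55), and Ugt2b37 was most like Ear2 (0.72), Cnbd2 (0.64) and Cd14 (0.63), a receptor for bacterial lipopolysaccharide.

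Other genes of drug metabolism were taken from 11 lists of enzymes, regulators, transporters and cofactor supply. Of their 387 annotated genes 7 (1.81%) stand in either table, 3 in P and 6 in T, the 4 members among them, near the 1.62% of all 21924 annotated protein-coding genes. The list of P450s holds 100 genes, of which 1 stands in P and 3 in T, and those of glutathione S-transferases (26) and UDP-glucuronosyltransferases (22) each have 1 gene in each table. No gene of the sulfotransferase and other conjugation list (36), the other oxidation, reduction and hydrolysis list (95), the cofactor list (17) or the regulator list (16) is listed. Of 31 CAR and PXR target genes only Cyp2b10 is listed, and of 32 NRF2 targets and 9 AHR targets only Gsta1. No gene of these lists passed limma by label in either table, against 38.8% of all listed genes in P and 0% in T. By the authors' deposited test Cyp2g1 in T passed (adjusted p = 0.0139) and no other gene of these lists did, against 14.1% of the genes listed for T. The genes outside these tables were not analysed here, so this says nothing about their levels. Cyp2g1, a P450 best known from the olfactory mucosa that lies between Cyp2b10 and Cyp2a22 on chr7, was at 1.24 ± 0.565 (n = 8) with vehicle and 0.639 ± 0.381 (n = 8) with SXB in T, with a limma difference of -0.44 (SE 0.16, adjusted p = 0.167). It fell without libraries 16 and 18 (-0.60, SE 0.14, limma adjusted p = 0.0263), in a fit that called 18.3% of all listed genes, and with the groups exchanged it was -0.61 (limma adjusted p = 0.00792). Without libraries 1 to 4 as well as 16 and 18 that call was lost (-0.61, limma adjusted p = 0.1), in a fit that called 4 of all 306 listed genes. Slc22a29, of the organic ion transporter family, was at 0.281 ± 0.101 (n = 8) and 0.144 ± 0.161 (n = 8) in T (limma difference -0.17, SE 0.08, adjusted p = 0.167). It was -0.21 without libraries 16 and 18 (limma adjusted p = 0.0587) and -0.20 with them exchanged (limma adjusted p = 0.0513). Cyp4x1, a P450 known from brain, was listed in P at 0.00875 ± 0.0125 (n = 8) and 0.0325 ± 0.0324 (n = 8), close to the rounding step of the file (limma difference 0.03, SE 0.02, adjusted p = 0.146).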

How the data were processed

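The labels' protocols give TRIzol extraction of total liver RNA and paired-end reads of 150 bases. The submitters' processing notes name the build GRCm38 and, as tools, DESeq2, RSEM, StringTie, HISAT2 and fastp; their versions and roles are not given. For each experiment the authors deposited a normalised expression signal per gene and library, without saying if it is TPM or FPKM. Column names of the comparison are displaced by position, and T has the names of P. Judged by their values, these columns hold a fold change on a linear scale (ratio), a log2 fold change and p-values, unadjusted then adjusted, that the authors deposited. Library depth is unknown, since only selected genes are listed, so no counting interval is given.

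Libraries were grouped by treatment label. Differences were tested with limma (version 3.58.1, R 4.3.3), two-sided, on log2(value + 1), adjusting p by Benjamini-Hochberg over every gene of a table (threshold 0.05). Folds of means use arithmetic means. Exact two-sided tests enumerated 12870 assignments of 16 libraries or 3432 of 14, and other permutations drew 100000 (Python 3.11.15, scipy 1.17.1). Scripts were tested on simulated data. Alternatives covered pseudocounts of 0.1 and 0.01, a mean of at least 1, a trended robust fit, the exact tests, a threshold of 0.01, single libraries left out, and sets of libraries left out, exchanged or fitted as a term. Added after the data were seen were libraries 16 and 18 left out together with 1 to 4, or of relations between members, every further setting within the 14 libraries, and single libraries left out of the difference between experiments. Near copies were counted in GENCODE M21 transcripts; promoters came from RefSeq (GRCm38.p6).

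Members and lists were chosen with earlier results of these data known. Named genes are the members, the 3 genes most like each (symbols other than Gm and Rik models, mean of at least 1) and the listed pathway genes. Orm2, mt-Atp6 and markers describe libraries, and Enho and Gdf15 were named after their values were seen.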

Additional observations from a re-analysis of the deposited data

Results flagged for a closer look

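In 5 of the 12 groups of a member by label, 1 library lay far from the other 7. Chance gives this in about 1 of 20 groups of normally distributed values. These values are skewed and the groups share libraries, so the rate here was not measured. The share over all listed genes was not computed either, so the count does not set the members apart from other genes. Gsta1 in P was at 3.74 in vehicle library 34. Gsta1 in T was at 8.44 in vehicle library 11 and at 7.81 in SXB library 18. Cyp2a22 in T was at 1.48 in SXB library 18, and Cyp2b10 in T at 2.51 in vehicle library 16. Of these 5 values, 3 belong to libraries 16 and 18, whose labels and column positions differ. Without those libraries, Gsta1 in vehicle library 11 stood as far from the rest relative to the range (a gap of 0.55 of the range, against 0.546 with library 16), but below the limit, which is higher for 7 libraries than for 8.

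The SXB effect on Ugt2b37 differed between the experiments by 0.81 on the log2(value + 1) scale (T minus P, permutation p = 0.00085, adjusted 0.00637). Ugt2b37 was higher in 7 of 8 SXB libraries than the vehicle median in T and lower in 7 of 8 in P. With a pseudocount of 0.01 in place of 1 the difference was 2.38 (limma adjusted p = 0.0131). Ugt2b37 was listed for opposite directions in P and T, so this difference was built into its selection.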

How the results depend on the processing

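By label, no alternative made Gsta1 or Ugt2b37 in T pass the threshold. Cyp2a22 in T passed without libraries 16 and 18 (-0.66), with their groups exchanged (-0.59) and without them with libraries 1 to 4 as a term (-0.63). Cyp2b10 in T turned to 0.11, 0.28 and 0.09 in those fits and to 0.22 without libraries 1 to 4 as well. Leaving out 1 library gave -0.20 to 0.11 for Cyp2b10 in T (turned without vehicle library 16) and -0.50 to -0.34 for Ugt2b37 in P. Without libraries 16 and 18, leaving out 1 more gave -0.74 to -0.56 for Cyp2a22, -0.02 to 0.17 for Cyp2b10, -1.23 to -0.76 for Gsta1 and 0.33 to 0.51 for Ugt2b37, which passed without vehicle library 14 (0.46, limma adjusted p = 0.0441) or SXB library 7 (0.51, limma adjusted p = 0.0234). There Cyp2a22 did not pass without libraries 1 to 4 (-0.61), Gsta1 passed with pseudocounts of 0.1 (-1.56) and 0.01 (-1.67), and Ugt2b37 with 0.1 (1.08). The difference between experiments for Ugt2b37 did not pass without libraries 1 to 4 (0.59). The cause was not tested.

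In P the count of 94 called of 242 listed genes became 36 at a threshold of 0.01 and 54 without libraries 33, 34 and 35. It was 26 when only genes with a mean of at least 1 were fitted. That fit left out the 195 genes with a mean below 1, so its count is out of far fewer genes and is no loss of calls by itself. In T the count of 0 became 2 with a pseudocount of 0.01, 56 without libraries 16 and 18, 90 with them exchanged, 50 without them with the term and 4 without libraries 1 to 4 as well. From 56, the count became 106 and 117 with pseudocounts of 0.1 and 0.01, and 3 to 76 with 1 more library left out. A mean of at least 1 gave a value for no member but Gsta1 in T, since the means of the others are below 1. No paired analysis was possible because no library number is shared between groups. Depth is unknown, and values near 0.01 are limited by rounding.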

Other observations

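The lowest rho with Cyp2a22 in T was that of Enho, which encodes adropin (-0.96 over 16 libraries), and Enho was also lowest with Gsta1 (-0.78). Its median was 3.23 in vehicle and 10.7 in SXB libraries, with 2.29 in library 16 and 1.96 in library 18. For Ugt2b37 in T the lowest was Gdf15 (-0.71), a stress-induced hormone. Fkbp5 was at 20.41 in library 16, which also had the highest Cyp2b10, against a median of 2.77 with vehicle and 5.48 with SXB. These genes were looked at after their values were seen, and nothing was tested on them.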
